A study of Mus musculus with 6 samples.

Results

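The open chromatin described here lies at 8 genes of the SLC16 family of monocarboxylate transporters in mouse liver: Slc16a1, Slc16a5, Slc16a6, Slc16a7, Slc16a9, Slc16a11, Slc16a12 and Slc16a13. Chromatin accessibility was measured by ATAC-seq, in which a transposase cuts and tags open DNA, in nuclei sorted for HNF4a, a transcription factor of hepatocytes. Both groups were male mice with floxed alleles of Ncor1, which encodes the nuclear receptor corepressor NCOR1, and of another gene. Controls received an adeno-associated virus with eGFP and the double knockout (dKO) mice one with Cre, and livers were taken on day 5 after the virus at zeitgeber time ZT10 (3 libraries per group). The sources used here do not give the promoter that drives Cre, the age of the mice or whether each library came from its own mouse, so a p-value here reflects only how these libraries vary, which may be technical variation. By its title, the study concerns corepressors, the glucocorticoid receptor and the making of glucose in liver.

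Peaks of the 6 deposited lists that shared at least 1 bp were merged into 109853 regions (build mm10). A region belongs to one of the 8 genes if it had a peak in any library and that gene's span was the nearest protein-coding gene within 50 kb of the region's midpoint. This gave 79 regions, of which 39 had a peak in all 6 libraries (shared regions), 22 in 2 to 5 libraries and 18 in 1 library. Slc16a7 held 23 regions, Slc16a12 held 20, Slc16a1 held 17, Slc16a9 held 7, Slc16a6 held 5, Slc16a11 held 3, and Slc16a5 and Slc16a13 held 2 each. The choice of regions used peak calls, so the number of peaks per library is a description: 58, 52 and 52 of the 79 regions were called in controls 1 to 3 and 59, 60 and 54 in dKO 1 to 3. At the distance limit, the farthest linked region of Slc16a1 lay 42653 bp from the gene. The next one out, at 51665 bp and so not counted, had a peak in dKO 1, 2 and 3 (10.6, 11.2 and 6.68 normalized tags). No control had one, a pattern that held for 1.57% of all regions. Regions outside the limit also lay near Slc16a7, one of them, at 57978 bp, with a peak in all 6 libraries. It had 40.9, 41.1 and 51.8 normalized tags in control and 28.9, 28.4 and 41.1 in dKO.

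Monocarboxylate transporters carry lactate, pyruvate, ketone bodies and related acids across the plasma membrane, most of the studied members together with a proton. In liver, lactate and pyruvate taken up from blood feed gluconeogenesis, and ketone bodies made in hepatocytes leave the cell through such carriers. SLC16A1 (MCT1) moves lactate, pyruvate and ketone bodies, SLC16A7 (MCT2) is a carrier with high affinity for pyruvate and lactate, and SLC16A6 and SLC16A11 have been linked to the transport of ketone bodies and pyruvate. SLC16A12 carries creatine, SLC16A9 carries carnitine and creatine, SLC16A5 carries drugs such as bumetanide, and SLC16A13 is little studied.

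A RefSeq table of the build GRCm38.p6 held the sequence around the annotated start of 4 of the 8 genes, from 250 bases before it to 50 after it. Of these, 3 are shown because they differ in how many libraries had a peak there, and the Slc16a11 window, which no region overlapped in any of the 6 libraries, is not printed. The Slc16a1 window (chr3:104638414-104638713, plus strand) was overlapped by a region called in 6 libraries, the Slc16a12 window (chr19:34747279-34747578, minus strand) by one called in 5, and the Slc16a9 window (chr10:70245026-70245325, plus strand) by 2 weak regions, called in at most 2 libraries. Capitals mark the palindromic E-box CACGTG, searched on both strands.
Slc16a1: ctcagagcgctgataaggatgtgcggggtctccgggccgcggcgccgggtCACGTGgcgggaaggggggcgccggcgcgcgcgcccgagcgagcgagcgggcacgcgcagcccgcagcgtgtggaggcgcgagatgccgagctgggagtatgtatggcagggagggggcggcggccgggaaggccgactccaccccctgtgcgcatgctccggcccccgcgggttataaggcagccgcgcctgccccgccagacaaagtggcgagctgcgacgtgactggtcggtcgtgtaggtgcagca
Slc16a12: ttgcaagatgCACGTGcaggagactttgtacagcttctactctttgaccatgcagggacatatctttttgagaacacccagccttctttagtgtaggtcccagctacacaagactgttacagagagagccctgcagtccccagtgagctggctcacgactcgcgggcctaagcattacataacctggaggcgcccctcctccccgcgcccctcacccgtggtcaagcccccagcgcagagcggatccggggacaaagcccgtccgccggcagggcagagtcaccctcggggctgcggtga
Slc16a9: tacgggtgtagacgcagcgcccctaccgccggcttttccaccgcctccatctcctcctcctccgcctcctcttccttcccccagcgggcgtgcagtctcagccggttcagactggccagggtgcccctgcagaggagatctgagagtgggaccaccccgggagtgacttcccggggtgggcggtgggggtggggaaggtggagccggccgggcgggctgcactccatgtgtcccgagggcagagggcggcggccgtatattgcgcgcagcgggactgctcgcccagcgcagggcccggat
GC made up 73.7% of the Slc16a1 window, 60.0% of that of Slc16a12 and 70.7% of that of Slc16a9, against a median of 53.0% over the 32619 windows of the table. The Slc16a1 window held 42 CG dinucleotides, that of Slc16a9 held 26 and that of Slc16a12 held 16, with a median of 7 over the table. One CACGTG lay in each of the Slc16a1 and Slc16a12 windows, starting at base 51 and base 11, and 7.2% of all windows hold it. AGAACA, a half-site of the glucocorticoid receptor element, was found in the Slc16a12 window only (19.0% of all windows hold it), and the full palindromic glucocorticoid receptor element and the direct repeat of AGGTCA with a 1-base spacer in none of the 4 (0.0092% and 0.0399% of all windows). A match of letters is no evidence of binding, and these windows say nothing of the distant regions, for which no sequence was used here.

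Accessibility was higher in dKO at distant sites around Slc16a1, while its start site had like values in both groups. Each value is a normalized tag count, the number of reads in a peak scaled by the authors to library depth, and a log2 change is the difference in log2(normalized tags + 1), dKO minus control, after each library was centred on its median. A region is called higher or lower where limma, fitted over all 51749 shared regions, gives an adjusted p under 0.05. Of the 11 shared regions of Slc16a1, 6 were called higher, 0 lower and 5 were not called, where 8.19% of all shared regions were called higher, 11.6% lower and 19.8% either way. At an unadjusted limma p under 0.05, 7 of the 11 were higher and 1 lower, where 7553 of all 51749 shared regions were higher. Slc16a1 was chosen with this rise already known, so the calls describe these libraries and are no independent evidence.

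The Slc16a1 region with the largest log2 change lay 26503 bp upstream of the start, in DNA with no annotated gene (chr3:104612048-104612275). It had 17.6, 18.5 and 22.8 normalized tags in controls 1 to 3 and 39.3, 34.8 and 31.8 in dKO 1 to 3. The groups did not overlap, and control 3 and dKO 3 were the closest pair. The mean went from 19.6 ± 2.8 to 35.3 ± 3.8 (SD, n = 3 each), a log2 change of 0.88 with an SE of 0.15 (adjusted p = 0.00255, limma). A region 2229 bp past the other end of the gene (chr3:104660587-104660795) had 21.7, 25.1 and 18.9 normalized tags in control and 37.5, 36.0 and 40.2 in dKO. Here the lowest dKO library stood well above the highest control. The mean rose from 21.9 ± 3.1 to 37.9 ± 2.1, a log2 change of 0.83 with an SE of 0.13 (adjusted p = 0.00191, limma).

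The other 4 regions that rose at Slc16a1 were spread over the same neighbourhood. At 31768 bp from the start (chr3:104670263-104670602) the controls had 11.5, 14.3 and 11.3 normalized tags and the dKO libraries 28.0, 16.3 and 20.4. The dKO libraries were widely spaced there, and dKO 2 was little above control 2 (log2 change 0.79 with an SE of 0.18, adjusted p = 0.00871 by limma). At 36853 bp (chr3:104675412-104675623) controls were tightly grouped at 17.5, 18.2 and 18.7 and dKO libraries lay at 27.0, 23.4 and 25 (0.51, SE 0.13, adjusted p = 0.0156). At 62451 bp (chr3:104701028-104701202) the values were 22.0, 26.3 and 28.4 in control and 35.1, 32.5 and 34.6 in dKO (0.47, SE 0.13, adjusted p = 0.0215). Inside the gene, 5451 bp from the start (chr3:104644000-104644230), controls had 13.4, 16.3 and 18.1 and dKO libraries 21.1, 20.3 and 21.4 (0.44, SE 0.15, adjusted p = 0.0489), the smallest rise of the 6. In each of the 6 regions every dKO library was above every control, which held for 12.6% of all shared regions. The ratio of the dKO mean to the control mean ran from 1.31 to 1.8, and the midpoints of the 6 regions span 89.0 kb.

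**Figure D1:**
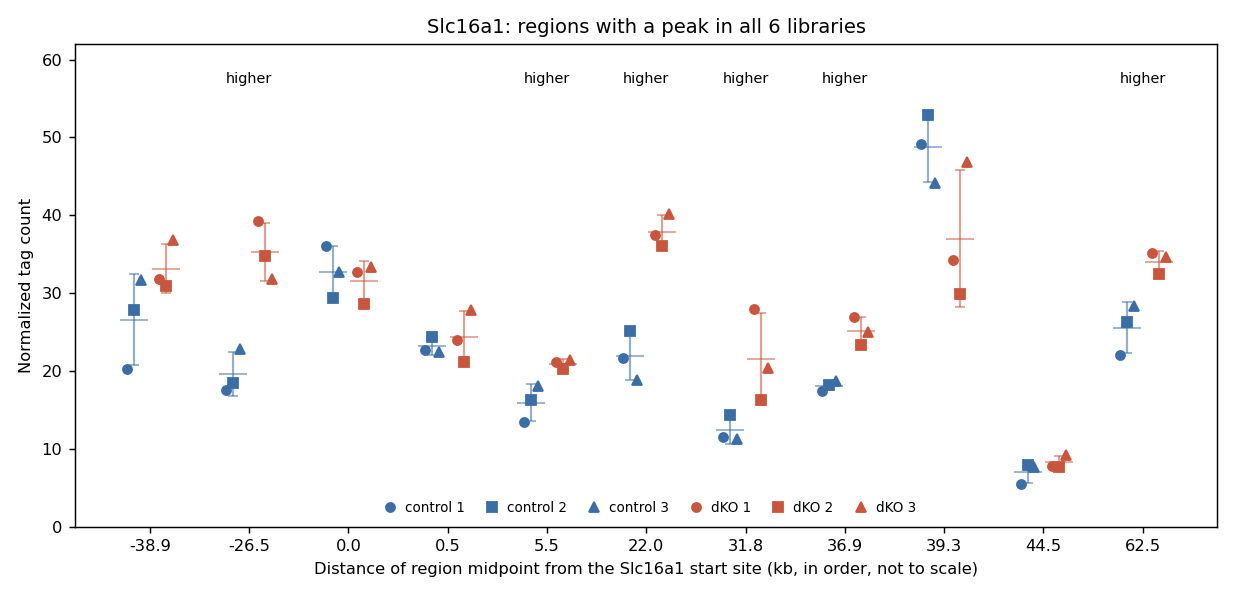
Normalized tag count (vertical axis) of the 11 Slc16a1 regions with a peak in all 6 libraries, ordered by distance from the start site in kb. Points are libraries (blue control, red dKO), horizontal ticks and bars the group mean ± SD (n = 3), and "higher" marks regions called by limma; the 6 marked regions have all dKO points above all control points, and the 2 regions at 0 and 0.5 kb do not.

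At the Slc16a1 start itself the groups overlapped. The region over the start (chr3:104638583-104638766), which overlaps the printed window, had 36.0, 29.4 and 32.7 normalized tags in control and 32.7, 28.6 and 33.3 in dKO. Its log2 change was 0.01 with a 95% interval from -0.24 to 0.27 (limma adjusted p = 0.955). The next region, 500 bp into the gene, had 22.7, 24.4 and 22.4 in control and 24.0, 21.2 and 27.9 in dKO, a log2 change of 0.12 (95% interval -0.13 to 0.38, adjusted p = 0.492). Both intervals end below the log2 changes of the 2 strongest distant regions; the difference between start and distant regions was not tested. Over all shared regions within 1 kb of a gene end 2.74% were called higher and 10.5% lower. The sign at the start is not settled: without centring, for one, its log2 change was -0.05 (adjusted p = 0.889, limma).

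One Slc16a1 region went the other way. The strongest region of the gene in control (chr3:104677876-104678064) lies inside the lncRNA gene Gm34548 and 2453 bp from a region that rose. It had 49.2, 52.9 and 44.1 normalized tags in control and 34.3, 29.9 and 46.8 in dKO, so that dKO 3 fell within the controls. The log2 change was -0.35 with an SE of 0.12 (adjusted p = 0.0593, limma), which misses the threshold. Without dKO 3 it was called lower (adjusted p = 0.0167), as it was without control 3 (0.0495). The remaining 2 shared regions of Slc16a1 were not called either, at 38941 bp upstream (log2 change 0.39, adjusted p = 0.0783) and 44472 bp downstream of the start (0.28, adjusted p = 0.248). Of its 6 regions that were not shared, 3 had a peak in 1 library and 3 in 2 to 5. Control 3 alone had a peak 37730 bp (19.8 normalized tags) and 28004 bp upstream (8.13), and dKO 1 alone 18069 bp upstream (4.2). Only controls 1 and 3 had one 32327 bp downstream (10.4 and 7.51). At 36797 bp upstream controls had 13.1, 13.5 and 24.9, dKO 1 and 2 had 12.5 and 11.8, and dKO 3 had no peak. At 16434 bp downstream controls 1 and 2 had 5.27 and 4.07, and dKO 1 and 2 had 5.65 and 4.91.

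The deposited peak width was 108 bp in control 1, dKO 1 and dKO 2 and 166 or 172 bp in control 2, control 3 and dKO 3. This gave a 108 bp class and a wider class. The width was not a term in the main model, and whether it marks a batch was not tested. The 6 regions had a positive log2 change within both width classes, each of which holds 1 library of one group. It was 1.16 and 0.51 on the log2 scale at 26503 bp upstream, 0.87 and 0.76 at the region 2229 bp past the gene, 0.97 and 0.54 at 31768 bp, 0.63 and 0.32 at 36853 bp, 0.73 and 0.23 at 62451 bp and 0.72 and 0.20 inside the gene, for the 108 bp class and the wider class in turn. With the width as a term 7 Slc16a1 regions were called higher. Without dKO 1 only the 2 strongest kept their call, and without dKO 2 these and the region at 31768 bp. Without control 1 the call at 62451 bp (limma adjusted p = 0.0627) and that inside the gene (0.130) were lost, the latter also without control 2 (0.0774). Without centring 3 of the 6 were called. With regions called in at least 3 libraries, in which a library without a peak was given its lowest value, 0 of them were, with adjusted p of 0.0504 and 0.0577 for the 2 strongest.

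Among all genes, 36 of 14710 with a shared region, Slc16a1 among them, had at least 6 regions called higher. Of the 500 genes with at least 11 shared regions, 4 had at least its 54.5% of them called higher, and 9 had a median log2 change of at least its 0.44, both counts including Slc16a1. By the mean centred log2 value of a gene's shared regions in each of the 6 libraries, less the gene's own mean, 4157 genes with at least 4 shared regions were compared with Slc16a1. The closest were Fbxw7, Ola1, Ldlrad4, Chchd3 and Chd1, with root mean square differences of 0.03, 0.03, 0.04, 0.04 and 0.05 on the log2 scale. The Slc16a1 profile was -0.30, -0.13 and -0.17 in controls 1 to 3 and 0.23, 0.25 and 0.11 in dKO 1 to 3. Control 1 was thus the lowest library and dKO 3 the dKO library nearest to the controls.

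At Slc16a7, the MCT2 gene, 0 of 13 shared regions were called higher, 2 lower and 11 were not called, against 8.19% higher and 11.6% lower over all shared regions. The larger fall was deep inside the gene, 43054 bp from its nearer end (chr10:125346422-125346642). This region had 22.7, 23.5 and 19.6 normalized tags in control and 7.11, 9.09 and 15.9 in dKO. All dKO libraries were below the controls, with dKO 3 between the other dKO libraries and the controls. The mean fell from 21.9 ± 2.1 to 10.7 ± 4.6, a log2 change of -0.98 with an SE of 0.20 (adjusted p = 0.00609, limma), or -1.26 in the 108 bp class and -0.51 in the wider one. This call held without each single library.

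The second Slc16a7 fall, also inside the gene (chr10:125270475-125270665), was smaller. Its values were 30.1, 35.9 and 31.6 normalized tags in control and 24.1, 21.5 and 25.7 in dKO, and the groups did not overlap. The log2 change was -0.38 with an SE of 0.12 (adjusted p = 0.0401, limma), and it lost its call without any one of 5 libraries, control 1 being the exception (adjusted p from 0.0615 to 0.153), under quantile normalization (0.148) and without centring (0.0936). The strongest region of the gene (chr10:125328357-125328529) had 46.2, 45.4 and 42.2 in control and 35.4, 36.8 and 39.9 in dKO, without overlap, but its log2 change of -0.19 was not called (95% interval -0.43 to 0.06, adjusted p = 0.258). In all, 3 of the 13 regions had every dKO library below every control, as did 15.8% of all shared regions.

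The end of Slc16a7 at which peaks cluster held a shared region 24 bp from the gene end (chr10:125389490-125389730) with 28.4, 31.8 and 33.1 normalized tags in control and 31.4, 31.7 and 35.6 in dKO. Its log2 change was 0.14 (95% interval -0.11 to 0.39, limma adjusted p = 0.421), and the groups overlapped. Just inside the gene, 512 bp from that end (chr10:125388970-125389179), a peak was listed in all 3 dKO libraries (11.5, 11.6 and 15.6) and in no control. Between these regions, 328 bp from the end (chr10:125389204-125389312), dKO 1 alone had a further peak (11.3). A library without a peak has no value in its list, so such a site is not shown to be closed. Over all regions 1.57% had a peak in all 3 dKO libraries and no control, and 1.34% the reverse. The other 9 shared Slc16a7 regions had log2 changes from -0.36 to 0.31 and adjusted p of at least 0.168.

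**Figure D2:**
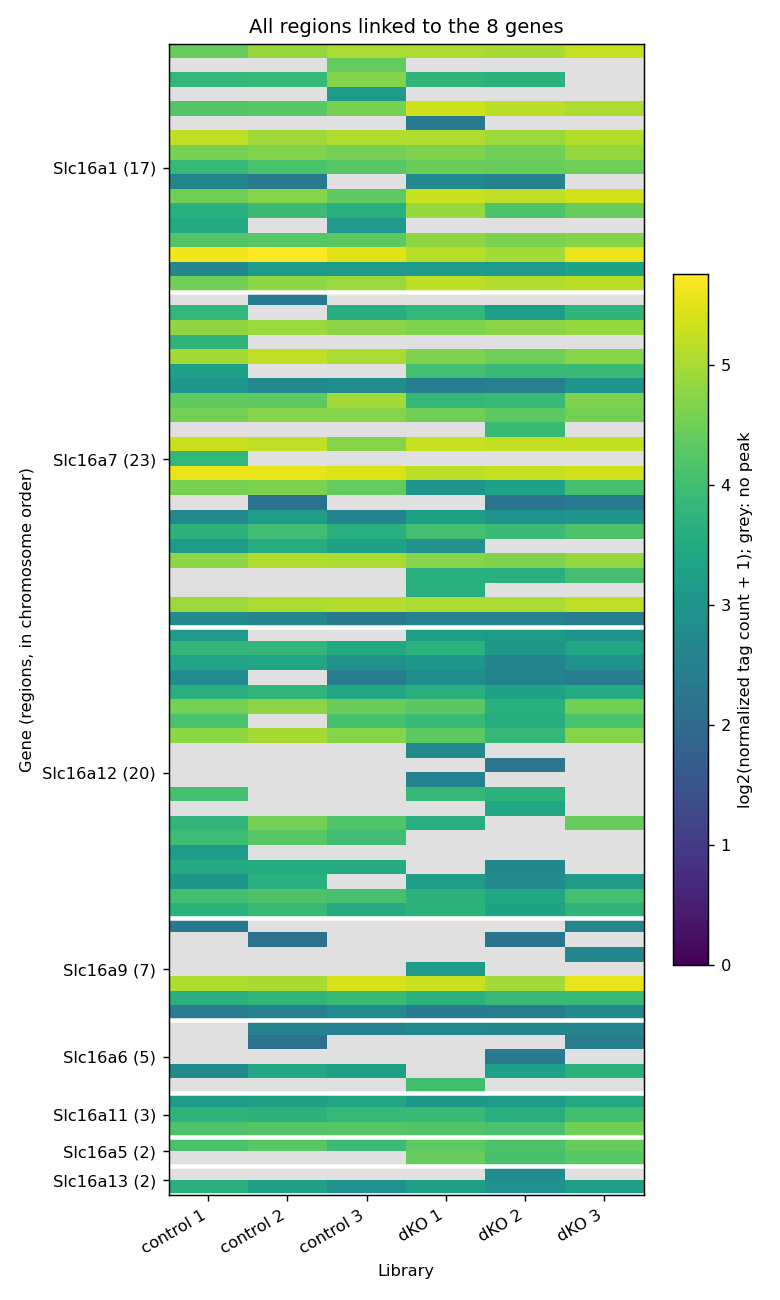
Value of each of the 79 regions (rows, in chromosome order within a gene) in each library (columns), as log2(normalized tag count + 1), with grey where a library had no peak. Most Slc16a1 and Slc16a7 rows are filled in all 6 libraries, while the 5 rows of Slc16a6 all have a gap. In 1 row of Slc16a5 and 1 of Slc16a7 only the 3 dKO columns are filled. In 1 row of Slc16a12 only the 3 control columns are.

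At Slc16a12, the creatine transporter gene, 7 of 20 regions were shared, and all 7 had a negative log2 change, from -0.48 to -0.06, as did 52.5% of all shared regions. Of the 7, 1 was called lower (14.3%, where 11.6% of all shared regions were), inside the gene (chr19:34718583-34718771). It had 26.3, 30.3 and 25.1 normalized tags in control and 18.6, 13.2 and 25.1 in dKO, so dKO 3 equalled control 3. The log2 change was -0.48 with an SE of 0.15 (adjusted p = 0.0399, limma), and -0.58 and -0.23 in the 108 bp and wider classes. The call was lost without control 1 (0.0728), control 2 (0.125), dKO 1 (0.119) or dKO 2 (0.219), and under quantile normalization (0.0814), without centring (0.0672) and with the width as a term (0.0607). At unadjusted p under 0.05, 2 of the 7 Slc16a12 regions passed, and the share of all shared regions lower at that p was not counted here.

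Around the Slc16a12 start the lists were patchy. The region over the printed window (chr19:34747183-34747382) had 12.9, 22.4 and 17.0 normalized tags in control, 11.2 in dKO 1, 20.4 in dKO 3 and no peak in dKO 2. Close to it, 221 bp from the start, dKO 2 alone had a peak (chr19:34747053-34747161, 9.98) that was not merged with that region. At 586 bp from the start (chr19:34746677-34746808) control 1 had 15.5, dKO 1 had 13.3, dKO 2 had 11.9 and the other libraries had no peak. Slightly upstream (chr19:34748269-34748459), 1036 bp before the start, all 3 controls had a peak (14.6, 18.1 and 14.8) and no dKO library did. Farther upstream (chr19:34756573-34756890), 9403 bp before the start, controls had 10.4, 10.6 and 10.6, dKO 2 had 5.33 and the other dKO libraries had no peak. Other regions had the gap in control. At 10374 bp before the start (chr19:34757593-34757812) dKO libraries had 8.34, 5.64 and 7.96, controls 1 and 2 had 7.19 and 11.6, and control 3 had no peak. Inside the gene (chr19:34684993-34685170) dKO libraries had 8.22, 7.74 and 6.62, and of the controls only control 1 had a peak (7.66). Of the 20 regions 5 were called in 1 library and 8 in 2 to 5.

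The other 5 genes had few shared regions and no call. At Slc16a9, 3 of 7 regions were shared, and none lay at the start, where 2 weak regions had 3.40 normalized tags in control 2 and 3.61 in dKO 2, and 5.35 in dKO 3. Past the far end of the gene, 991 bp from it, dKO 1 alone had a peak (7.81). The strongest Slc16a9 region, 2047 bp past the far end of the gene (chr10:70287907-70288090), had 32.2, 30.9 and 41.2 in control and 37.7, 30.1 and 46.2 in dKO. These overlap, with a log2 change of 0.18 (95% interval -0.10 to 0.45, limma adjusted p = 0.354).

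Slc16a11 and Slc16a13 are neighbours on chromosome 11, and regions were divided between them by the nearer span. All 3 Slc16a11 regions were shared. The one inside the gene (chr11:70214350-70214683), 606 bp from the start, had 16.6, 17.6 and 17.9 normalized tags in control and 17.3, 16.2 and 21.9 in dKO (log2 change 0.13, limma adjusted p = 0.502). The region 815 bp upstream of the start had a log2 change of 0.14 (adjusted p = 0.530), and the one 12087 bp upstream had 8.09, 8.81 and 9.53 in control and 7.34, 7.79 and 10.2 in dKO (adjusted p = 0.990). At Slc16a13 the single shared region (chr11:70221041-70221230) had 11.5, 8.76 and 6.50 in control and 8.63, 6.53 and 8.2 in dKO, so that the groups overlapped (-0.09, 95% interval -0.50 to 0.32, adjusted p = 0.772; 0.10 without control 1).

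Slc16a5 had a shared region over its gene end, its midpoint 150 bp outside (chr11:115462059-115462452), with 16.5, 18.1 and 14.1 normalized tags in control and 19.1, 16.6 and 20.2 in dKO. Its log2 change was 0.25 (95% interval -0.05 to 0.56, limma adjusted p = 0.230). In the gene, 1110 bp from the same end (chr11:115463429-115463601), dKO 1, 2 and 3 had a peak of 20.4, 15.9 and 18.5 and no control had one. Both sites also overlap the lncRNA gene Gm11695. Slc16a6, which overlaps the gene Arsg at one end, had no shared region, so no test was made there. Of its regions, 2 were called in 5 libraries. The one inside the gene (chr11:109472277-109472506) had 5.59, 9.67 and 8.63 in control, 8.73 in dKO 2, 11.8 in dKO 3 and no peak in dKO 1. The one outside, 4979 bp from the gene (chr11:109445769-109445983), had 4.83 and 4.82 in controls 2 and 3, 5.6, 5.38 and 5.16 in dKO and no peak in control 1, and it overlaps the lncRNA gene Gm45916. A site inside the gene, 327 bp from the end that Arsg overlaps, had a peak in dKO 1 only (15.0).

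Over the 8 genes 6 of the 39 shared regions were higher by limma, 3 lower and 30 had no call. That is 15.4% higher and 7.69% lower, where all shared regions had 8.19% and 11.6%. All 6 higher calls were at Slc16a1: at the other 7 genes limma called 0 of 28 higher, also at an unadjusted p under 0.05, and 3 lower (10.7%). At that unadjusted p, 7553 of all 51749 shared regions were higher. The log2 changes of the 39 shared regions of all 8 genes had a median of 0.01, and those of all 51749 shared regions one of -0.02. All calls lay over 1 kb from a gene end, where 33 of the 39 regions are, and 0 of the 6 within 1 kb were called. Over all shared regions within 1 kb of a gene end, 2.74% were called higher and 10.5% lower. Whether near and far regions of these genes differ was not tested. Ordered in control by the normalized tag count of their strongest region in each library, in peaks of one width per library, Slc16a1 (44.1 to 52.9 in control, 36.0 to 46.8 in dKO) and Slc16a7 (42.2 to 46.2 and 36.8 to 39.9) came first and overlapped. Slc16a9 (30.9 to 41.2 and 30.1 to 46.2) was below both in control and overlapped both in dKO. Slc16a12 (25.1 to 30.3 and 13.2 to 25.1) was next in control, above Slc16a11 (16.6 to 17.9 and 16.2 to 21.9) and Slc16a5 (14.1 to 18.1 and 16.6 to 20.4), which overlapped each other. In dKO these 3 ranges overlapped, and in dKO 2 Slc16a12 was below both of the others. Slc16a6 (5.59 to 9.67 and 8.73 to 15.0) and Slc16a13 (6.50 to 11.5 and 6.53 to 8.63) were the lowest in control, where they overlapped. Under quantile normalization the split of 6 higher and 3 lower became 7 and 1, and without centring 3 and 1.

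**Figure D3:**
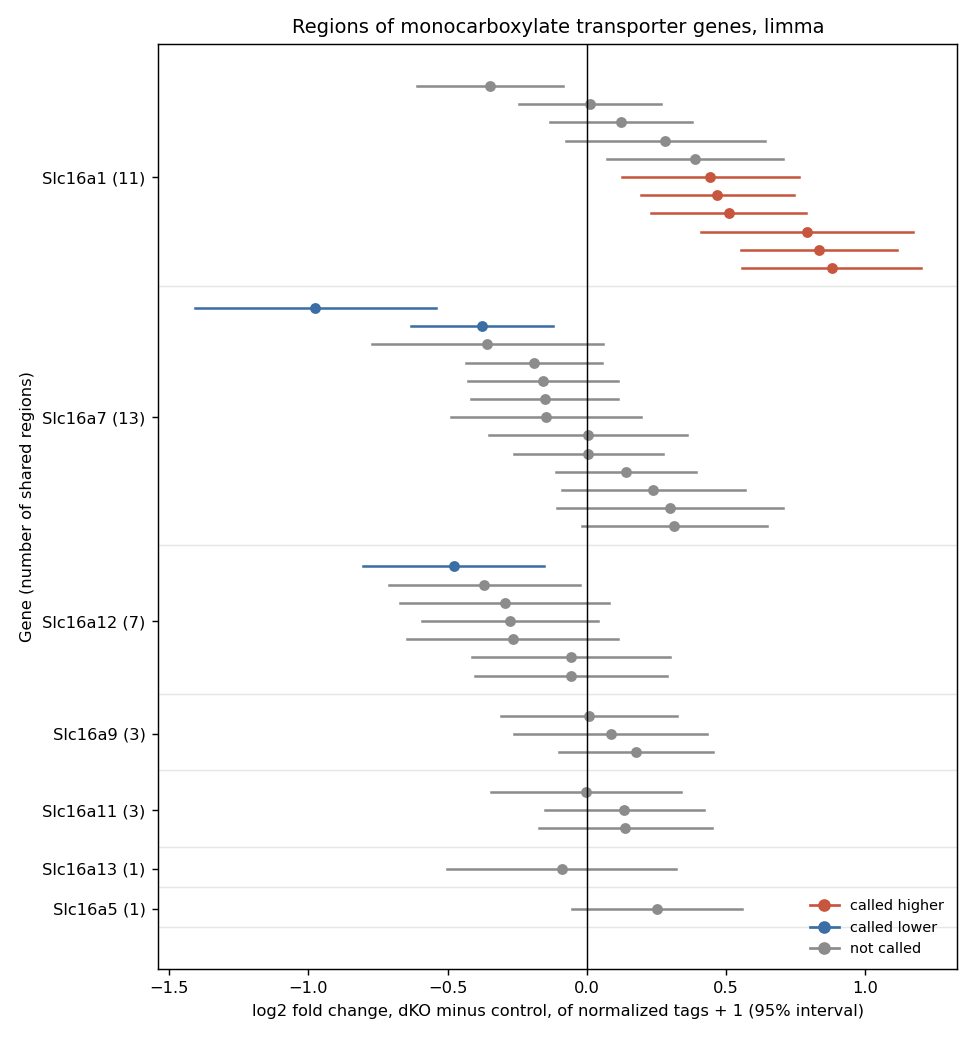
Log2 change (horizontal axis, dKO minus control, of normalized tags + 1) with its 95% limma interval for each of the 39 shared regions, grouped by gene; Slc16a6 has none. The 6 red intervals (called higher) all belong to Slc16a1, and of the 3 blue ones (called lower) 2 belong to Slc16a7 and 1 to Slc16a12.

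Other genes of monocarboxylate handling moved in both directions. A list of 29 genes held 105 shared regions at 24 genes, of which 11 were called higher, 16 lower and 78 were not called, with a median log2 change of -0.01. Over all shared regions 8.19% and 11.6% were called. The 5 without a shared region were Slc16a4, Slc16a8, Slc5a8, Gpt and Gamt. Without centring 6 were called higher. Leaving out dKO 1 gave 2 higher and 5 lower calls, and leaving out dKO 2 gave 2 and 3. Higher calls were 4 without control 3, and lower calls 9 without control 1.

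Among the other SLC16 genes, 3 of 28 shared regions rose and 6 fell. Of those that fell, 3 were at Slc16a10, a carrier of aromatic amino acids, where the region with the smallest p had 26.1, 34.2 and 25.8 normalized tags in control and 15.6, 16.1 and 20.8 in dKO. The groups did not overlap, and the mean fell from 28.7 ± 4.8 to 17.5 ± 2.9 (SD, n = 3 each; -0.62 on the log2 scale, limma adjusted p = 0.0104). Of the 2 chaperone genes, Bsg encodes basigin, which brings SLC16A1 to the cell surface. A region 679 bp from an end of Bsg (chr10:79712536-79712781) had 14.6, 15.4 and 16.8 normalized tags in control and 20.9, 27.8 and 28.5 in dKO, with no overlap (log2 change 0.74 with an SE of 0.16, adjusted p = 0.00678 by limma). Within the 108 bp class the difference was 0.82 and within the wider one 0.69. The other 5 shared chaperone regions, of which Emb, the embigin gene, held 2, were not called.

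The mitochondrial pyruvate carrier brings pyruvate into mitochondria and is encoded by Mpc1 and Mpc2. Of their 7 shared regions 2 fell, both at Mpc1, where 11.6% of all shared regions fell, and no region of Mpc2 was called. The Mpc1 region with the smaller p went from 42.9 ± 3.4 to 29.6 ± 4.8 normalized tags (log2 change -0.47, limma adjusted p = 0.0113). Of 33 regions at lactate and pyruvate enzyme genes 5 rose and 5 fell. Pcx, which encodes the pyruvate carboxylase that starts gluconeogenesis from pyruvate, had 2 that fell, one of them 43 bp from a gene end (29.3 ± 8.0 to 17.0 ± 3.6, log2 change -0.68, adjusted p = 0.0141). At Pdhb, a subunit gene of pyruvate dehydrogenase, a region 8 bp from a gene end had 103.8, 87.0 and 75.2 in control and 52.5, 53.2 and 66.9 in dKO (-0.55, adjusted p = 0.0104).

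Me1, the malic enzyme gene that turns malate into pyruvate, held 3 of the 5 enzyme regions that rose and 1 that fell. Its region with the smallest p (chr9:86638895-86639067) had 13.5, 11.7 and 6.39 normalized tags in control and 36.5, 31.1 and 24.7 in dKO. Every dKO library stood far above the controls, with a log2 change of 1.56 (SE 0.24, limma adjusted p = 0.00179; 1.39 and 1.31 within the width classes). The lactate dehydrogenase genes split: at Ldhb a region 58 bp from a gene end went from 10.7 ± 0.91 to 15.0 ± 1.6 (0.51, adjusted p = 0.0389), and at Ldha one region fell (-0.54, adjusted p = 0.0310) and one rose (0.41, adjusted p = 0.0495).

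Of 19 regions at ketone body genes 1 rose and 2 fell. The rise was at Bdh1, the gene of the dehydrogenase that makes beta-hydroxybutyrate (13.0 ± 0.62 to 17.6 ± 2.3, log2 change 0.46, limma adjusted p = 0.0359). Of 11 creatine and carnitine regions 1 rose and 1 fell, both at Slc22a5, the carnitine transporter gene, the latter from 22.0 ± 1.6 to 14.2 ± 4.2 (-0.57, adjusted p = 0.0190). The single shared region of the sodium-coupled carriers was not called.

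**Figure D4:**
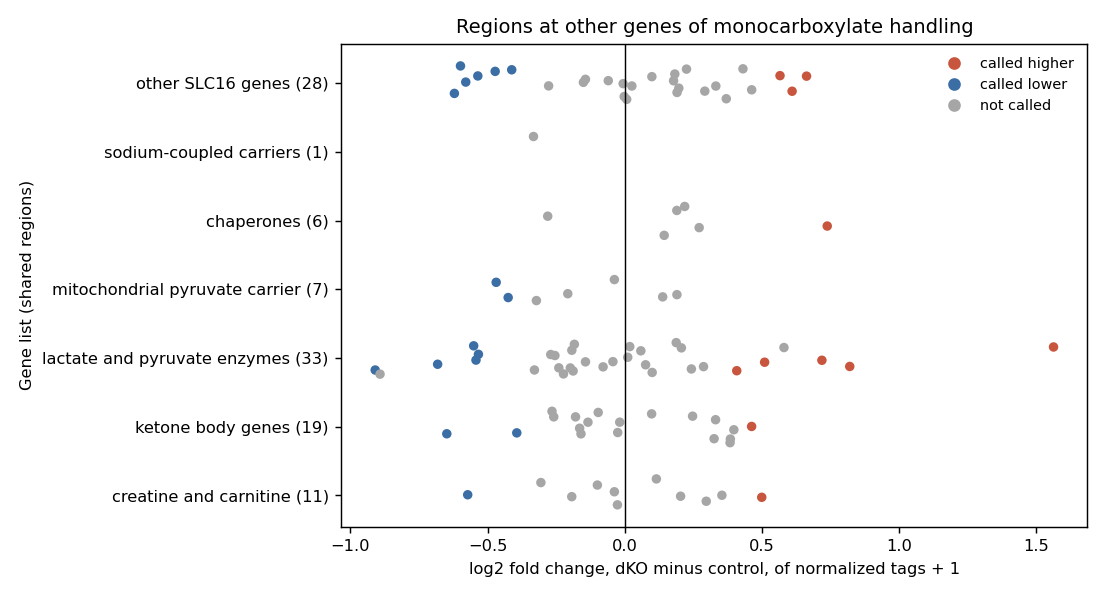
Log2 change (horizontal axis, dKO minus control, of normalized tags + 1) of the 105 shared regions at 24 other genes of monocarboxylate handling, one point per region and one row per gene list, with vertical jitter only for legibility. Red and blue points (11 called higher, 16 called lower by limma) lie on both sides of 0, and the point farthest right, at 1.56, is at Me1.

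The libraries held 68316 to 84614 peaks, with median normalized tag counts of 10.9 to 13.4. If the smallest step between values is 1 read, 30 normalized tags are 494 to 627 reads and the depths differ by up to 1.27 times; read totals were not used here. All 10 hepatocyte marker genes had a region in some library in or within 1 kb of the gene, and 4 had a shared one. Marker genes of other liver cells with a shared region were 1 of 6 for Kupffer cells, 5 of 6 for endothelial cells, 3 of 6 for stellate cells, 2 of 5 for cholangiocytes and 0 of 5 for lymphocytes. Counting any library, a region was found at 1 of 6 Kupffer cell genes and 6 of 6 endothelial cell genes. For stellate cells, cholangiocytes and lymphocytes it was 3 of 6, 3 of 5 and 1 of 5. Those with none included Clec4f, Adgre1, Krt19 and Cd3e. Summed over shared regions the hepatocyte list had 438.4 to 554.9 normalized tags in control and 265.6 to 418.7 in dKO, and the endothelial list 210.5 to 314.8 and 161.2 to 245.9, and the part of either in the differences above was not tested. For Kupffer cells the sums were 25.7 to 26.5 and 16.1 to 28.4, for stellate cells 44.3 to 54.9 and 35.6 to 51.4, and for cholangiocytes 13.2 to 20.0 and 19.9 to 29.0.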

How the data were processed

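Per the labels' protocols, HNF4a-positive nuclei were sorted from livers and libraries made by Omni-ATAC. The build mm10 and the tools HOMER 4.11, SAMtools 1.10, Picard and Trim Galore 0.6.4 appear in the submitters' processing notes. The sources used here do not name an aligner, duplicate filter, cut site shift or peak options. Per the file headers, the authors deposited one HOMER peak list per library, with a normalized tag count, which is a signal scaled to depth, and a peak score for each peak. The deposited score was used only to filter peaks in one alternative.

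Autosomal and X peaks were merged, and 17 to 24 peaks per library on chromosome Y were left out. A region's value in a library is the highest signal of its peaks. Shared regions were compared as log2(value + 1), median centred, by limma 3.58.1 (R 4.3.3, mean-variance trend, group as the only term, 2-sided, Benjamini-Hochberg adjustment over all shared regions, threshold 0.05). The script was tested on simulated data. An exact permutation test of 3 against 3 libraries cannot go below p = 0.1. Gene spans came from RefSeq GRCm38.p6 without exons, so exon, intron and UTR were not analysed here. Member regions were described singly if called, within 1 kb of a gene end, strongest of their gene, or with peaks in one group only. Some member regions outside these rules were described as well. In the list of 29 other genes the called region of smallest p of each gene was named. The members, lists and tests were chosen with earlier results of these data known. Alternatives covered scaling, pseudocount, filters, overlap, links, peak width, the replicate number and leaving out each library over the same regions. The second floxed gene and the regions of some listed genes are not reported here.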

Additional observations from a re-analysis of the deposited data

How the results depend on the processing

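The regions called at the 8 genes kept their direction under every alternative that gave a value. Of 318 values of named regions under alternatives, 262 kept direction and side of the threshold, 43 lost a call, 2 gained one and 11 changed sign without a call in either setting. These 11 are small log2 changes. The Slc16a1 start region had -0.049 without centring, -0.13 where a peak in 3 libraries sufficed and -0.047 with peak width in the model, and from -0.059 (without control 2) to 0.087 (without control 1) when 1 library was left out. Where a peak in 3 libraries sufficed, the Slc16a1 region 500 bp into the gene had -0.018, the Slc16a11 regions 815 bp upstream and 606 bp downstream of its start -0.0024 and -0.0066, and the Slc16a7 end region -0.00075. Slc16a13 ranged from -0.28 (without control 3) to 0.097 (without control 1). Without centring, 2562 of all shared regions were called higher, and 3 regions of the 8 genes were higher (all at Slc16a1) and 1 lower, with 6 higher in the pathway list. With regions called in at least 3 libraries, 1591 and 1531 of all regions were called higher and lower, 2 regions of the 8 genes higher, 0 at Slc16a1 (limma, 4 at an unadjusted p under 0.05), and 3 and 4 in the pathway list; missing values are then set to a library's lowest. Regions of the 8 genes called lower were 1 with quantile normalization, 1 with a mean of at least 10 normalized tags and 0 with the stricter peak score (limma, 3 at an unadjusted p under 0.05, and 3886 lower over all regions), under which 5 regions had peaks in one group only instead of 3; the Slc16a7 region that fell most is then not shared. With links within 10 kb, 2 regions remained called higher, both at Slc16a1.

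Leaving out 1 library at a time gave 1257 to 5174 regions called higher and 1402 to 8123 lower over all shared regions, 2 to 7 and 1 to 3 at the 8 genes, 2 to 7 and 0 to 1 at Slc16a1, and 2 to 11 and 3 to 19 in the pathway list. The lowest counts over all shared regions came without dKO 2. Lower calls were 58.6% of all calls, 50.6% with quantile normalization and 64.5% without centring.

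The replicate numbers are shared by the groups, but deviations of same-numbered libraries correlated at 0.15, -0.03 and 0.23, so the numbers do not show a pairing. With the replicate number as a block, 5417 regions were called higher and 7384 lower, 7 and 3 at the 8 genes, 7 and 0 at Slc16a1 and 14 and 17 in the pathway list. Control 1 correlated best with dKO 2 (0.16), so not every library correlated best with its own number.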
